A study of Mus musculus with 2 samples.

Results

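The metallothionein genes Mt1 and Mt2, the transcription factor gene Mtf1 and the metal transporter genes Slc39a14, Slc39a10, Slc30a1 and Slc30a10 were followed in whole mouse liver. They were taken by symbol from the annotation of the array's probes, which gave 7 genes read by 8 probes, out of 19318 genes and 23469 gene probes with usable spots on both arrays. The array of the control liver came from a Twist2-Cre mouse line, and the other from Twist2-Cre/A20fl/fl mice, here called CKO, both at 24 weeks of age. Both genotypes thus carry the Twist2-Cre allele, which is active in cells of mesenchymal lineages, and the labels give the control no floxed A20 allele, although its sample description also calls it WT. A20 is the NF-kB inhibitor encoded by Tnfaip3. How many mice each RNA represents is not stated in the labels.

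Metallothioneins are small, cysteine-rich proteins that bind zinc and copper in the cytosol, and liver is a main site of their synthesis. Their genes are switched on by zinc through the metal-sensing factor MTF-1, which binds metal response elements in their promoters, and also by glucocorticoids and by interleukin-6 in the acute phase response. Cell zinc is further set by importers of the SLC39 (ZIP) family, which carry zinc into the cytosol, and by transporters of the SLC30 (ZnT) family, which carry zinc out of it, while some members of each family carry manganese.

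Each genotype was measured on 1 single-colour array, so no test could be made, the spread between animals is unknown, and array and genotype cannot be told apart. Background was set by the blank spots, and a probe counted as measured where its spot was brighter than their mean plus 2 SD, which was 69.5 for the control and 72.2 for the CKO liver. Spot-to-spot error, from the positive control spots, was 0.136 to 0.191 (SD of log2), and probes of the same gene differed in ratio by 0.13 (SD, 716 genes with at least 2 probes). Hepatocyte markers were bright on both arrays, with Alb at deposited intensities of 37445 and 36770, and each gave signal above background. Tnfaip3 had deposited intensities of 41 and 38 in control and CKO liver. Its probe may lie outside the deleted part, and whole liver holds many cells that Twist2-Cre does not reach, so this value does not check the label.

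Mt1 and Mt2 were clearly brighter in the CKO liver, while the 5 other genes showed much smaller differences. The deposited values are spot intensities less background on a linear scale, and their unit is arbitrary. Mt2 had a deposited intensity of 904 in control liver against 3691 in CKO liver, which is 4.08-fold higher. Mt1 had one of 3216 in control liver against 9091 in CKO liver, 2.83-fold higher. Both metallothioneins were thus far above background on either array, and the brighter array was that of the CKO liver.

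**Figure D1:**
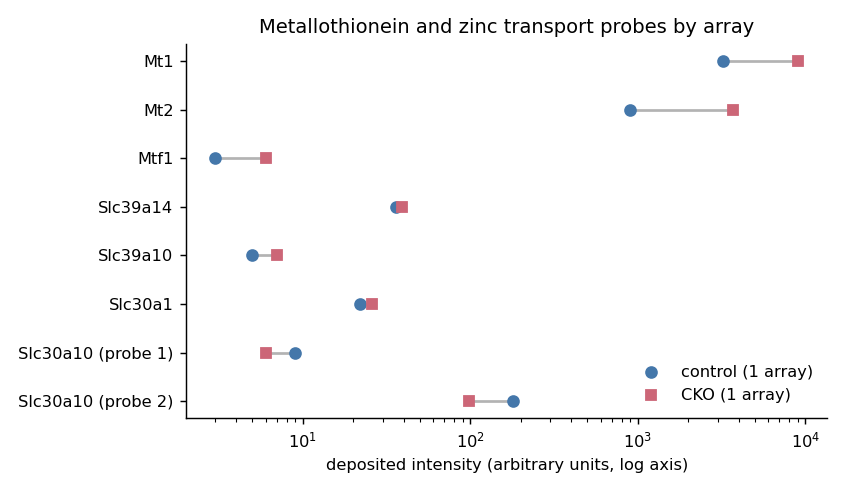
Deposited intensity (arbitrary units, log axis) of each of the 8 probes in control liver (circle) and in CKO liver (square), with a line joining the 2 values of a probe. Mt1 (3216 and 9091) and Mt2 (904 and 3691) are the probes with wide gaps at high intensity, and both Slc30a10 probes run the other way.

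Before background correction the spot of Mt2 read 1118 for the control and 4545 for the CKO liver, against blank spots at 67.2 and 69.3. The spot of Mt1 read 3809 and 11092, where the brightest spots of the arrays read 47899 and 45949. Neither gene was therefore limited by the blank-spot background or by the upper end of the scale. The scanner's local background column, which rose with spot signal, read 3215 (control) and 7347 (CKO) at Mt1. At Mt2 it read 741 and 1956. On the normalized log2 scale, where an offset of 50 was added to every corrected intensity and the arrays were brought to the same distribution, Mt2 had levels of 10.11 and 12.19. Its log2 ratio of CKO over control was 2.07. Mt1 had log2 levels of 11.84 and 13.44 on the same scale and a log2 ratio of 1.60. These ratios ranked 16th for Mt2 and 33rd for Mt1 from the highest among the 14143 genes above background on both arrays. The offset shrinks the ratios of dim genes, so these ranks favour bright probes and hold for this scale only. In the deposited values some dim genes had larger log2 ratios than Mt2, which had 2.03. An example, named outside the rule, was Gzma with 2.85 from intensities of 5 and 36, beside 0.69 on the offset scale.

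Of the 7 genes, 2 reached 2-fold on the higher side and 0 on the lower side on the offset scale. Among all genes above background, 0.636% reached 2-fold on the higher side and 0.0778% on the lower side. The median log2 ratio of the 7 genes was 0.07, beside -0.02 over all genes. In the deposited values 3 of the 7 reached 2-fold higher and 0 reached 2-fold lower, beside 3.81% and 1.08% of all genes. The added gene was Mtf1, whose values lay close to background. The middle 90% of all genes had log2 ratios from -0.25 to 0.28 on the offset scale, and Mt1 and Mt2 lay above its 99th percentile, 0.79. Slc30a10 lay between the 1st percentile, -0.43, and the 5th, and the other 4 genes lay within the middle 90%.

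**Figure D2:**
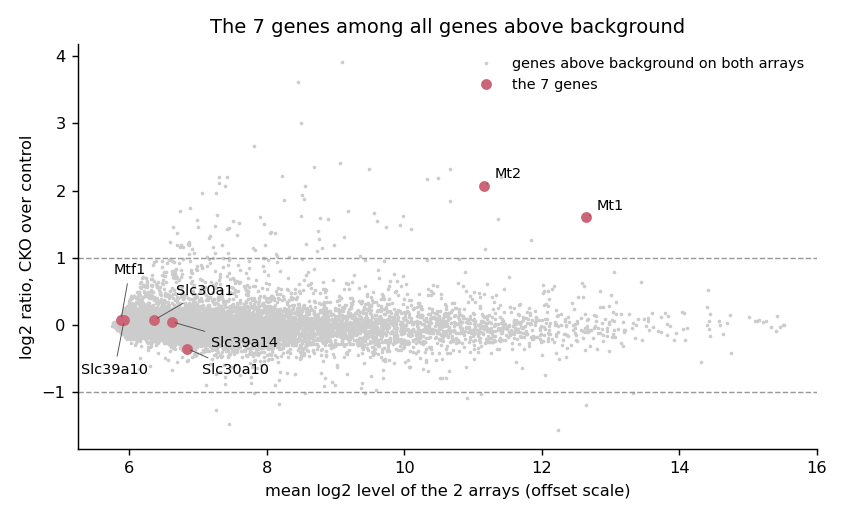
Log2 ratio of CKO over control against the mean log2 level of the 2 arrays (offset scale) for the 14143 genes above background on both arrays (grey) and the 7 genes (red), with dashed lines at 2-fold. Mt2 (2.07) and Mt1 (1.60) lie above the cloud at high levels, and the other 5 genes lie within 2-fold at low levels.

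Mt1 and Mt2 are neighbours on chromosome 8, with starts 6471 bases apart in the RefSeq annotation of GRCm38.p6. The promoter windows of Mt1, Mt2, Slc30a1 and Slc30a10 are shown from 250 bases before to 50 bases after the RefSeq start, because Mt1 and Mt2 were higher together and Slc30a1 is a known MTF-1 target whose ratio was small, while Slc30a10 was the 1 gene that was lower. Capitals mark the core of the metal response element, TGCACNC or TGCGCNC, found on either strand. The Mt1 window is chr8:94178839-94179138 on the plus strand, that of Mt2 chr8:94172368-94172667 on the plus strand, that of Slc30a1 chr1:191906531-191906830 on the plus strand and that of Slc30a10 chr1:185454598-185454897 on the plus strand, all from RefSeq's GRCm38.p6 table.
Mt1: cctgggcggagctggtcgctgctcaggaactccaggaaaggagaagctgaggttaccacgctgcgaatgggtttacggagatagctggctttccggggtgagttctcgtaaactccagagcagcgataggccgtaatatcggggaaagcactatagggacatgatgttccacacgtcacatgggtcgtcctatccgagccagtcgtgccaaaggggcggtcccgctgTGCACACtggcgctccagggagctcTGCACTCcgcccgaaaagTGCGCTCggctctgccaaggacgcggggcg
Mt2: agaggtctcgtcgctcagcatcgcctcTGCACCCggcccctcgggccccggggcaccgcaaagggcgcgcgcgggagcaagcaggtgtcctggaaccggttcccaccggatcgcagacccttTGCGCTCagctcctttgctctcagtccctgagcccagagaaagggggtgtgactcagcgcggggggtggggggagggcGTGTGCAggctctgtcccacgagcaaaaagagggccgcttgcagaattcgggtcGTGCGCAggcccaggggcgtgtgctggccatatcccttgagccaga
Slc30a1: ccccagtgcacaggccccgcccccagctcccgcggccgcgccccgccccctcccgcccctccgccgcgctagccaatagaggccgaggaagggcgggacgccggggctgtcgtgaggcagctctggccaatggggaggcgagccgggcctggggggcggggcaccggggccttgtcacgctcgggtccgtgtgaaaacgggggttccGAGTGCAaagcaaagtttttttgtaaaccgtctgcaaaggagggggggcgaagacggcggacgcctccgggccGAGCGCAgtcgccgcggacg
Slc30a10: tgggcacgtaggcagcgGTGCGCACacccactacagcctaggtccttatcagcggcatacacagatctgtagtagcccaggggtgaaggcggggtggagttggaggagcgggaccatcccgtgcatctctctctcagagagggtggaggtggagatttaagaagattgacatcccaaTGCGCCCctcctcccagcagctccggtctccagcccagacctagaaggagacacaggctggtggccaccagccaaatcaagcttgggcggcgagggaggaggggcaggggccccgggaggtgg

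The Mt2 window held 4 matches to the metal response element core and the Mt1 window 3. The Slc30a10 window held 3 matches, of which 2 overlap on opposite strands, and the Slc30a1 window held 2. The window of Mtf1 and both windows of Slc39a10 held 0. A window was found for 6 of the 7 genes. Over all 32851 windows of this length in the table, 25.7% held at least 1 match and 1.97% at least 3. The antioxidant response element core TGACNNNGC had 1 match in Mt2 and 1 in Slc30a1 and occurred in 12.4% of windows. The STAT element TTCNNNGAA had 1 match, in a window of Slc39a10, and occurred in 8.3% of windows, and the E-box CACGTG had no match in these genes and occurred in 7.15%. A match is a string of letters only, and elements farther from the RefSeq start, on either side, lie outside these windows. Whether that start is the one used in liver was not tested, so the counts hold for these windows only.

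Among 390 genes above background whose window held at least 3 metal response element cores, 5 were at least 2-fold higher in the CKO liver, which is 1.28%. These 5, named after their values were seen, were Mt1, Mt2, the clock factor gene Dbp, the interferon regulatory factor gene Irf1 and H2-DMa of MHC class II loading. Without Mt1 and Mt2, which prompted the count, it was 3 of 388 genes, or 0.773%. Among genes with 1 or 2 cores 11 of 3715 were at least 2-fold higher, or 0.296%, and among those with 0 cores 51 of 7053, or 0.723%. The median log2 ratio was -0.02 in each of these sets. These shares rest on few genes and 1 array per genotype, and control through these elements was not tested.

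The genes next to the metallothioneins on chromosome 8 differed little. They were added for their position, outside the rule for named genes and after the values of Mt1 and Mt2 were known. Mt3, the metallothionein best known from brain, had deposited intensities of 14 and 13 and a log2 ratio of -0.04. Mt4, the metallothionein of stratified epithelia, was not above background on either array. On the other side, in their order, the nuclear pore gene Nup93 had intensities of 34 and 35 (log2 ratio 0.02), Slc12a3 was not above background, the endoplasmic reticulum stress gene Herpud1 had 349 and 361 (0.09), and Nlrc5, the activator of MHC class I genes, had 12 and 18 (0.15). Beyond Mt4 lay Bbs2, with 18 and 16 (-0.05), Ogfod1, with 3 and 3 (0.02), and Nudt21, with 215 and 236 (0.12). Of the measured genes around this cluster, Mt1 and Mt2 were those past 2-fold.

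Mtf1, which encodes the zinc-sensing activator of metallothionein genes, gave a signal barely above background. Its deposited intensities were 3 in control liver and 6 in CKO liver. The spots stood 3.12 and 4.64 blank-spot SDs above the blank mean in the same order. The log2 ratio was 0.06 on the offset scale, and the deposited values, which are whole numbers, were 2-fold apart. A difference in Mtf1 transcript could not be resolved at this signal.

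The importers Slc39a14 and Slc39a10 had similar signals in both livers. Slc39a14 encodes ZIP14, which brings zinc, manganese and iron into hepatocytes and is known to be induced by interleukin-6. It had deposited intensities of 36 and 39 and a log2 ratio of 0.05 on the offset scale, with spots 35.6 and 32.5 blank-spot SDs above the blank mean. Its ratio was within the probe-to-probe spread of 0.13, on a scale where the offset shrinks the ratios of dim genes. It was 0.12 in the deposited values and -0.05 with the local background column of the scanner. Slc39a10 encodes ZIP10, a plasma membrane zinc importer, and its probe was close to background. Its intensities were 5 and 7, its log2 ratio was 0.07 on the offset scale and 0.49 in the deposited values, and its spots lay 4.72 and 6.11 blank-spot SDs above the blank mean.

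Of the exporters, Slc30a1 had similar signals in both livers, and Slc30a10 was lower in CKO liver. Slc30a1 encodes ZnT1, the plasma membrane zinc exporter and an MTF-1 target like the metallothioneins. Its deposited intensities were 22 in control liver and 26 in CKO liver, 1.18-fold higher, and its log2 ratio on the offset scale was 0.07. That offset ratio was within the probe-to-probe spread of 0.13, but the offset shrinks the ratios of dim genes. The log2 ratio was 0.24 in the deposited values, so the spread cannot show that the signals were equal. Slc30a10 encodes a manganese exporter of hepatocytes and other epithelia, and it was read by 2 probes of the same transcript record. The brighter probe had deposited intensities of 179 in control liver and 98 in CKO liver, 1.83-fold lower, and a log2 ratio of -0.64 on the offset scale. The dimmer probe had intensities of 9 and 6 and a log2 ratio of -0.07 on that scale, where the offset shrinks differences of dim spots. Both probes were lower in the CKO liver, and they differed in size. Averaged over probes, the log2 ratio of Slc30a10 was -0.35, which ranked 270th from the lowest of the 14143 genes.

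**Figure D3:**
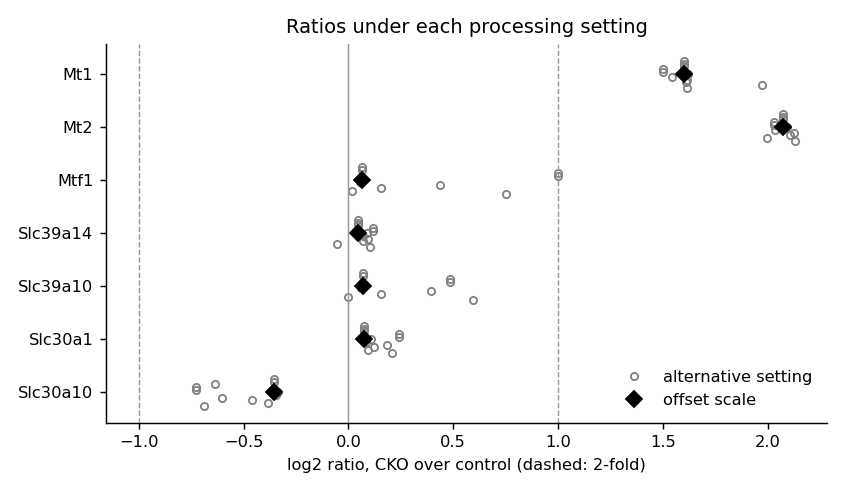
Log2 ratio of CKO over control of each of the 7 genes on the offset scale (diamond) and under the alternative settings of background, offset, scaling, probe choice and filter that gave a value (open circles), with dashed lines at 2-fold. Mt1 and Mt2 stay beyond 2-fold under every setting tried, Slc30a10 stays below 0 under every setting tried, and Mtf1 and Slc39a10 spread the most. Probe choice and filter could not move Mt1 or Mt2.

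The remaining members of both zinc transporter families differed by less than 2-fold on the offset scale. Of 14 measured ZIP genes, 12 were above background on both arrays, of which 6 were higher and 6 lower, with a median log2 ratio of -0.01, beside -0.02 over all genes. The largest log2 ratios were those of Slc39a11 (0.28, deposited intensity 45 and 65), Slc39a5 (-0.20, 98 and 79), which encodes a basolateral zinc importer of liver and other epithelia, Slc39a3 (-0.15, 42 and 33) and Slc39a9 (-0.10, 181 and 160). Slc39a8, whose product ZIP8 is the closest relative of ZIP14 and also carries manganese, had a log2 ratio of 0.02 (73 and 74); it was named outside the rule. Slc39a2 and Slc39a12 were not above background on either array. The ZIP family was therefore evenly split around 0, beside 42.2% of all genes with ratios above 0. Its median ranged from -0.05 to 0.02 over the alternative settings.

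Of 10 measured ZnT genes, 8 were above background on both arrays, with 3 higher and 5 lower, where 42.2% of all genes were higher. Their median was -0.04, beside -0.02 over all genes, and it ranged from -0.07 to 0.00 over the alternative settings. After Slc30a10 the largest log2 ratios were those of Slc30a5 (-0.11, 207 and 187), which loads zinc into the early secretory pathway, Slc30a4 (0.10, 4 and 8) and Slc30a2 (-0.09, 22 and 18). Slc30a4 was at 2-fold higher in the deposited values, where it was close to background. Slc30a3 and Slc30a8, the latter known from insulin granules, were not above background. Slc30a10 had the largest ratio of its family on the lower side, and Mt1 and Mt2 stood well outside the range of both transporter families.

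**Figure D4:**
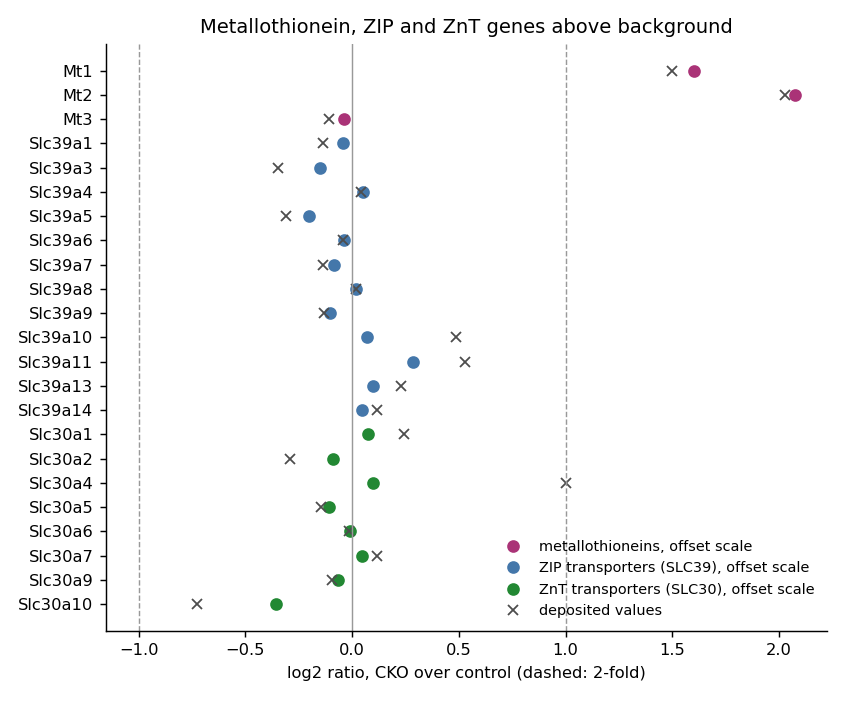
Log2 ratio of CKO over control for the metallothionein, ZIP and ZnT genes above background on both arrays, on the offset scale (circles, coloured by family) and in the deposited values (crosses), with dashed lines at 2-fold. Mt1 and Mt2 lie beyond 2-fold on both scales, and the transporters lie between -0.35 and 0.28 on the offset scale.

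Other known MTF-1 targets had small ratios on the higher side, without reaching 2-fold. All 6 measured genes of that list, written with earlier results of these data known, were above background and higher, with a median log2 ratio of 0.13. The probe-to-probe spread of 0.13 refers to single probes, so it does not measure the spread of a median of 6 genes. The spread between animals is unknown. Slc40a1, the iron exporter ferroportin, had 150 and 179 (0.22), Gclc, the catalytic subunit of glutathione synthesis, 462 and 510 (0.17), the stress-responsive gene Ndrg1 25 and 34 (0.17) and the LIM protein gene Csrp1 50 and 55 (0.09). Over all genes 42.2% had ratios above 0. With the local background column of the scanner in place of the blank spots the median of this list was -0.01. The metallothioneins thus differed by far more than the other targets named here.

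Most genes of the list for the interleukin-6 and STAT3 response were higher in the CKO liver beside Mt1 and Mt2. Which signal acted on them was not tested. Higher values were seen for 15 of 18 measured genes, and 5 of these reached 2-fold. Over all genes 42.2% had ratios above 0 and 0.636% reached 2-fold higher. The median log2 ratio of the list, written with earlier results of these data known, was 0.38. The 5 were the serum amyloid genes Saa3 (2.21, deposited intensity 72 and 488), Saa1 (2.20, 1047 and 4707) and Saa2 (2.19, 530 and 2457), the siderophore binder Lcn2 (1.93, 113 and 546) and the orosomucoid Orm2 (1.85, 89 and 429). Saa1 and Saa2 are so alike in sequence that their probes may read both. The 2 lower genes, named after their values were seen, were the feedback inhibitor Socs3 (-0.56, 1283 and 816) and the fibrinogen chain Fga (-0.06). The other fibrinogen chains, also named after their values were seen, were Fgb with a log2 ratio of 0 and Fgg with 0.19. Slc39a14, itself an interleukin-6 target, had the small log2 ratio of 0.05 given above.

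Genes of the glucocorticoid list had no common direction. Of 9 measured genes 4 were higher and 5 lower, with a median log2 ratio of -0.02 and 0 past 2-fold. The 5 lower genes include Nr3c1 (-0.12, 10 and 6), named outside the rule, which encodes the glucocorticoid receptor itself. Tsc22d3, which encodes the anti-inflammatory protein GILZ, had a log2 ratio of -0.86 (727 and 364), Pck1, a gluconeogenic enzyme, 0.57 (4584 and 6276), Tat, tyrosine aminotransferase, -0.42 (4834 and 3280) and the factor Klf9 0.21. Over all genes 42.2% had ratios above 0 and 0.636% reached 2-fold higher. Of 11 measured oxidative stress genes 7 were higher and 4 lower, with a median of 0.12 (-0.11 with the local background column) and 1 past 2-fold. That gene was Hmox1, haem oxygenase, at 1.14 (210 and 510). Srxn1 (0.25, 137 and 173.5), Nfe2l2 (0.21, 51 and 66) and Nqo1 (0.18, 29 and 39) followed.

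**Figure D5:**
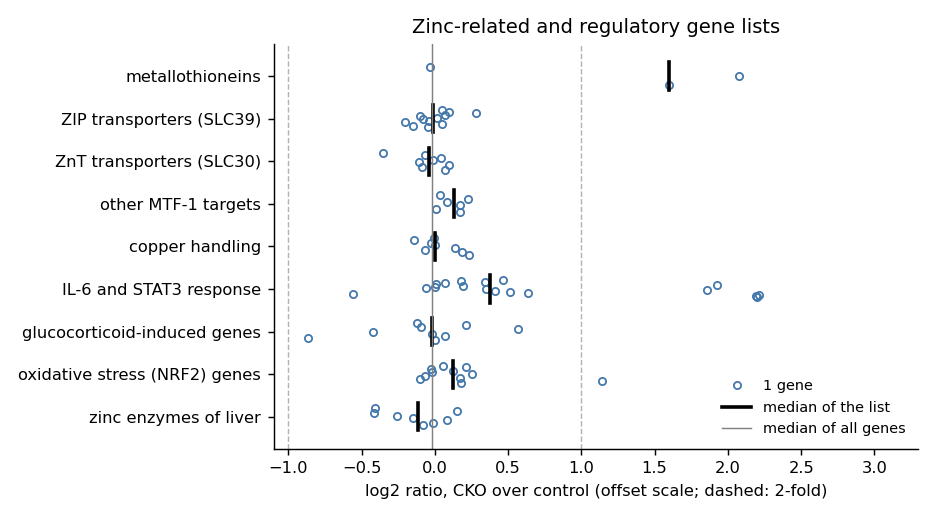
Log2 ratio of CKO over control (offset scale) of each gene above background on both arrays in the zinc-related and regulatory gene lists (open circles), with the median of each list (bar), the median of all genes (grey line) and dashed lines at 2-fold. The metallothionein list holds 3 genes and has a median of 1.60, which is Mt1's own value and becomes 0.80 when the dim Mt4 is kept, the interleukin-6 list has a median of 0.38, and the transporter lists (-0.01 and -0.04) lie close to the median of all genes.

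Markers of some liver cell types differed between the same arrays. Deposited intensities were summed over the markers of a list that had values on both arrays, without bringing the arrays to the same distribution. Counts of higher and lower markers are on the offset scale, where 42.2% of all genes had ratios above 0. For 10 Kupffer cell and macrophage markers the sum was 2040 in control liver and 6702 in CKO liver, and all 10 were higher, while Adgre1 was above background on the CKO array only. For 8 monocyte and neutrophil markers it was 1368 and 3789, with 7 of 8 higher. For 10 hepatocyte markers it was 149196 and 134716, with 4 of 10 higher. Their median log2 ratio on the offset scale was -0.02, beside -0.02 over all genes. For 8 stellate cell and fibroblast markers the sum was 1707 and 1543, but 6 of the 8 were higher on the offset scale. Without the bright Dcn (1387 and 918) it was 320 and 625. For T, B and NK cell markers it was 61 and 170 over 7 genes, with 6 of 7 higher and Nkg7 left out because the control gave no value (26 in CKO liver). For endothelial markers it was 1227 and 818, with 5 of 7 lower, and for cholangiocyte markers 140 and 98, with 5 of 5 lower. Markers of pancreas (54 and 49), kidney (23 and 20), skeletal muscle (20 and 17) and adipose tissue (128 and 133) summed to similar values on both arrays. The part of cell composition in the Mt1 and Mt2 values was not tested. In whole tissue, a change in the number of cells of a type and a change in RNA per cell cannot be told apart.

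Genes with signals near the mean of Mt1 and Mt2, or near Slc39a14, were found by distance between pairs of log2 levels on the 2 arrays. Such distances describe probe signals and not amounts of transcript. The mean lies between the levels of Mt1 and Mt2 and is the level of neither gene. The 5 nearest to the mean of Mt1 and Mt2, at distances from 0.414 to 0.962, were the actin-binding thymosin Tmsb4x (2013 and 4578), Saa1 (1047 and 4707), the interferon-inducible GTPase Iigp1 (1275 and 3644), the MHC class Ib gene H2-T23 (2914 and 4014) and the antiviral membrane protein gene Ifitm3 (3056 and 3924). Tmsb4x (log2 ratio 1.26), Saa1 (2.20) and Iigp1 (1.57) were past 2-fold, while H2-T23 (0.60) and Ifitm3 (0.51) were not. The 5 nearest to Slc39a14, at distances from 0.00915 to 0.0115, were Sertad1, 9530027J09Rik, Farsa, Gtpbp8 and Dipk1b, all at deposited intensities of 35 to 36 in control liver and 38 to 39 in CKO liver.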

How the data were processed

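Total RNA of whole liver, 1 control and 1 CKO sample, was amplified to amino allyl aRNA and coupled to Cy5, per the labels' protocols. The authors deposited, per the file headers, each spot's median intensity with that of its surroundings, from scans at 3 gains, and a value table of intensity that, tested on the values, equals the spot less the trimmed blank mean times 0.859 (control) or 0.825 (CKO), to within 0.621 and 0.553. The scanner software is not stated in the labels or headers. Samples were grouped by the labelled genotype.

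Intensities were corrected with normexp against the blank-spot mean (limma 3.58.1, R 4.3.3, offset 50), quantile-normalized without control spots and put on the log2 scale. The local background column rose with the spot's own signal (r = 0.988 control and 0.972 CKO, across gene spots) and served as an alternative only. Spots at fault on either array (4) were left out. Probes were named from the platform annotation (1 symbol for 20686 of 23469), and probes of a gene were averaged. A gene was called past 2-fold, with no test. Promoter windows came from RefSeq (GRCm38.p6). The steps were tested on simulated data with changes placed only in bright spots. That check does not cover genes as dim as Mtf1, Slc39a14, Slc39a10, Slc30a1 and Slc30a10.

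Named genes were the 7 genes, Tnfaip3, and the members of each list past 2-fold and otherwise up to 4 with the largest absolute ratios. Also named were the 5 genes nearest in level to the mean of Mt1 and Mt2 and the 5 nearest to Slc39a14. The genes and lists were chosen with earlier results of these data known. The 11 alternatives were other background corrections, offsets, scalings, probe choices, filters and the deposited values.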

Additional observations from a re-analysis of the deposited data

How the results depend on the processing

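Under the 11 alternatives, Mt1 (log2 ratio 1.499 to 1.97) and Mt2 (1.996 to 2.13) stayed at least 2-fold higher, and no gene of the 7 was 2-fold lower. The probe choice and the filters could not change Mt1 or Mt2, each read by 1 bright probe. Centring left their deposited ratios the same, and every setting used the same arrays. The median of the 7 genes was 0.07 on the offset scale, but 0.60 with plain subtraction of the blank mean, 0.39 with an offset of 0 and 0.49 in the deposited values, centred on the median or not. The count of genes past 2-fold higher was 2, or 3 in the deposited values, where Mtf1 was at 2-fold. Slc30a10 ranged from -0.73 to -0.34 and Slc30a1 from 0.07 to 0.24. With normexp on the local background column Slc39a14 was at -0.05 and Slc39a10 at 0.00. In that setting 3.08% of all genes were past 2-fold higher and 1.39% lower. Requiring spots above the blank mean plus 5 SD left 5 of the 7 genes, without Mtf1 and Slc39a10. The median of the metallothionein list was 1.60 from 3 genes and 0.80 with no filter. Lists with a median above that of all genes numbered 6 of 9, and 5 to 8 under the alternatives. No paired analysis was possible because each genotype had 1 array.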

Other observations

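Genes of copper handling, the other metal that metallothioneins bind, had no common direction. Of 8 genes above background on both arrays 4 were higher and 4 lower, with a median log2 ratio of 0.00 and 0 past 2-fold. Among all genes 42.2% had ratios above 0, 0.636% reached 2-fold higher and 0.0778% reached 2-fold lower. In the deposited values 3 of the copper genes were higher and 5 lower, with a median of -0.09. The copper importer gene Slc31a1 had deposited intensities of 230 and 276 (log2 ratio 0.24), its relative Slc31a2 49 and 62 (0.18), the copper chaperone gene Atox1 1877 and 1964 (0.14) and Commd1 629 and 538 (-0.14). The copper exporter gene Atp7b was not above background on either array.

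Of 8 zinc-dependent enzymes of liver, 6 had lower signals in CKO liver and 0 were past 2-fold. Over all genes above background on both arrays, 8166 of 14143 were lower. The median log2 ratio of the enzymes was -0.11. The haem synthesis enzyme Alad had deposited intensities of 1307 and 921 (log2 ratio -0.41), the pyrimidine catabolism enzyme Dpys 761 and 539 (-0.41), copper-zinc superoxide dismutase Sod1 652 and 517 (-0.26) and betaine-homocysteine methyltransferase Bhmt 7001 and 7256 (0.15). With the local background column the median of this list was 0.36, on the other side of 0.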
